A study of Mus musculus with 22 samples.

Results

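The genes of 9 secreted regulators of bone morphogenetic protein (BMP) signalling were followed across arterial smooth muscle cells of 7 mouse tissues. They were the 7 ligands Bmp2, Bmp3, Bmp4, Bmp5, Bmp6, Bmp7 and Gdf10 and the 2 antagonists Grem1 and Chrdl1. They were chosen by symbol, with earlier results of these data known, as 9 of the 28099 genes in the deposited table. All 9 passed a filter that asked for 3 or more libraries with a signal of 10 or more. Grem1 passed by way of stomach, intestine and lung libraries, so a difference between tissues was built into its passing. The cells had been isolated by fluorescence-activated sorting from intestine, with 4 libraries, and from stomach, bladder, kidney, lung, heart and aorta, with 3 libraries each. In 6 tissues the labelled genotype was Cspg4-Dre/Acta2-CreERT/R26-GFP, and in heart it was Cspg4-DreERT/Acta2-CreERT/R26-GFP, so that heart and its genotype cannot be told apart. All mice had been given tamoxifen by intraperitoneal injection on 3 days, at 0.75 mg per 10 g of body weight from a stock of 20 mg/mL in corn oil. One recombinase, Dre, is thus driven by Cspg4, the gene of the mural cell proteoglycan NG2, and the other, Cre, by Acta2, the gene of smooth muscle alpha-actin. Both genes are also active outside arteries, Cspg4 in pericytes and Acta2 in visceral smooth muscle, which limits the sort as a model of arterial cells. No tissue is named as a control, so each was set against the other 6. The labels do not say that the libraries came from separate animals, so the p-values speak of the spread among these samples, part or all of which may be technical.

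BMPs are secreted dimers of the transforming growth factor beta superfamily. They bind type I and type II receptor kinases, which phosphorylate SMAD1, SMAD5 and SMAD9. With SMAD4 these enter the nucleus and switch on genes such as the Id family. Secreted antagonists such as gremlin 1 and chordin-like 1 bind the ligands and keep them from the receptors. In vessels the pathway is known for its part in endothelial and smooth muscle differentiation and in pulmonary arterial hypertension, and in the gut a gradient of BMP activity runs along the crypt, where gremlin 1 made by stromal and muscle cells keeps activity low at the base.

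Against the mean of the other 6 tissues, Grem1 was higher and Gdf10 lower in stomach. Bmp5 joined Grem1 among the genes higher in intestine. The 250 bases before the start of each are shown because the RefSeq table (GRCm38.p6) covers them and because they differ widely in base composition. Capitals mark GGCGCC, a GC-rich sequence that SMAD1 and SMAD5 can bind.
Grem1: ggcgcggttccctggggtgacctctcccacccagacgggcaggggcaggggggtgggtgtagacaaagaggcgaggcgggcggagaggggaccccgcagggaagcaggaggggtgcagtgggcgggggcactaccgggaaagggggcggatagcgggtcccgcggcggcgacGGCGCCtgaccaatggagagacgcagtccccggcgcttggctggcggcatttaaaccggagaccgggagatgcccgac
Gdf10: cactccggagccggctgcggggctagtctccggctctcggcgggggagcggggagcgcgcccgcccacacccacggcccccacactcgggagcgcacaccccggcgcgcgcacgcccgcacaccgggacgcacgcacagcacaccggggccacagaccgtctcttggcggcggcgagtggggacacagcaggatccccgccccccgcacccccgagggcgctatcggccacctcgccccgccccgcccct
Bmp5: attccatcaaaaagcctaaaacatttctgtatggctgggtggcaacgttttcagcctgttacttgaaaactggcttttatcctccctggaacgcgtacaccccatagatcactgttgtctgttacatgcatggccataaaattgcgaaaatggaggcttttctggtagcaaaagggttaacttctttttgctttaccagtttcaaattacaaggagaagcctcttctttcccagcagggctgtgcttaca
The Grem1 window (chr2:113758649-113758898, minus strand) holds 1 copy of GGCGCC, which is its own reverse complement. Of 32841 windows of that length in the table, 9.59% hold a copy. The Gdf10 window (chr14:33923337-33923586, plus strand) and the Bmp5 window (chr9:75775115-75775364, plus strand) hold none. In the Grem1 window 72.0% of bases are G or C, with 24 CpG dinucleotides. The Gdf10 window has 78.8% and 35, and the Bmp5 window 42.8% and 4, against a median of 52.4% and 6 over all windows. The table has an entry for 5 of the 9 genes, including Bmp4, at 63.2% G or C, and Bmp6, at 68.8%. Searched on both strands, TGTTTAC, the CArG box and TATAAA were found in none of the 5 windows, and 3.17%, 1.47% and 12.4% of all windows hold them. CANNTG, not capitalised in these sequences, occurs 3 times before Bmp4, 2 times before Bmp6 and in none of the other 3 windows, against 66.2% of all windows with at least 1.

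The libraries differed in depth. The deposited signal is a scaled whole number, and reads were rebuilt from the fixed step that 1 read is worth in each library. Depth was 629456 to 1927765 rebuilt reads in the 3 aorta libraries and 817157 in heart 3, against 4389363 to 12708401 in the other 18. In aorta 1, the shallowest, 1 read is worth a signal of 9.4205. Relative to the other 6 tissues, the median of all tested genes fell by 1.04 on the log2 scale in aorta and was between -0.19 and 0.34 elsewhere, so changes in aorta are to be read against that shift. Acta2 was above 0 in every library and averaged 15690 ± 8110 in aorta and 1496 ± 200 in intestine (SD, n = 3 and 4), while Cspg4 ranged from 15 in 1 bladder library to 2542 in 1 kidney library. None of 9 smooth muscle markers was at 0 in any tissue. Reads carry no molecular identifiers, so floors given here cover counting error only. These are bulk samples, in which fewer cells of a type and less RNA per cell cannot be told apart.

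All 9 genes differed across the 7 tissues in the limma F test on log2(signal + 1), where 59.6% of the 16917 tested genes did, and also in edgeR on rebuilt reads, where 57.4% did. Set against the mean of the other 6 tissues, 30 of 63 combinations of gene and tissue passed an adjusted p of 0.05, 16 higher and 14 lower, against 21.5% of such combinations over all tested genes. The members were chosen with earlier results of these data known, so counts beyond such shares are descriptions only. Intestine and bladder stood at the high end. In intestine 6 of the 9 were higher and 0 lower (Bmp3, Bmp5, Bmp6, Bmp7, Grem1 and Chrdl1), where 15.5% of tested genes were higher and 9.97% lower. In bladder 6 were higher and 0 lower (Bmp2, Bmp3, Bmp5, Bmp6, Bmp7 and Gdf10), where 8.31% of tested genes were higher and 7.4% lower. The median log2 fold change of the 9 was 1.84 in intestine and 1.34 in bladder, beside 0.34 and 0.06 for all tested genes.

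Aorta and heart held calls in the other direction. In aorta 0 were higher and 4 lower (Bmp5, Bmp6, Bmp7 and Grem1), where 42.8% of tested genes were lower and 9.15% higher, so the count of lower members is near the background. The members' median in aorta was -0.99, beside -1.04 for all tested genes. In heart 0 were higher and 4 lower (Bmp3, Bmp4, Bmp7 and Grem1), where 12.4% of tested genes were lower and 6.03% higher. Stomach had 2 higher (Bmp7 and Grem1) and 2 lower (Bmp3 and Gdf10), with backgrounds of 13.4% and 6.93%. Lung had 1 higher (Bmp3) and 2 lower (Bmp2 and Bmp6), with backgrounds of 4.43% and 3.48%. Kidney had 1 higher (Gdf10) and 2 lower (Bmp5 and Chrdl1), with backgrounds of 6.35% and 4.11%. Between single tissues, 83 of 189 combinations of gene and tissue pair passed, against 20.9% over all tested genes.

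**Figure D1:**
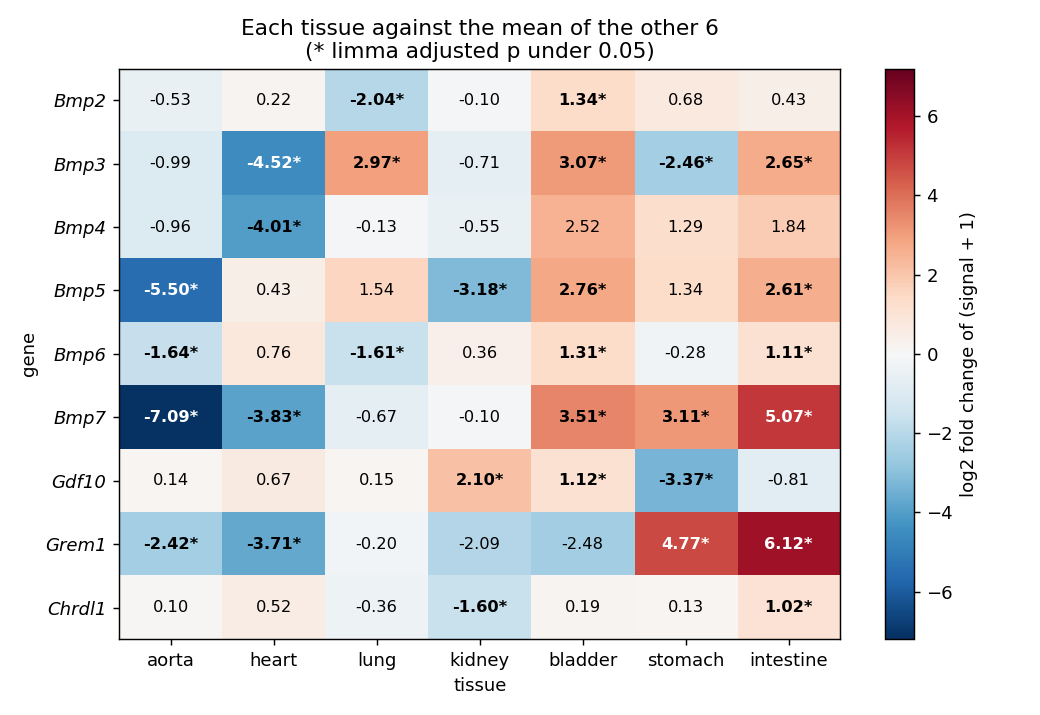
Log2 fold change of log2(signal + 1) for 9 genes (rows) in each of 7 tissues (columns) against the mean of the other 6, with asterisks at a limma adjusted p under 0.05. Intestine and bladder carry 6 higher calls each, and aorta and heart 4 lower calls each.

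Bmp2 and Bmp4 are close relatives and encode ligands that bind the type I receptors BMPR1A and BMPR1B readily. Bmp2 (ENSMUSG00000027358, mm39 chr2:133394079-133404805, plus strand) was found in every library and was lowest in lung. In lung its signal was 291, 215 and 213. In bladder it was 1888, 2611 and 1113, in stomach 1194, 1239 and 1143, and in intestine 1008, 1204, 983 and 949. Heart held 1105, 1083 and 631, kidney 859, 760 and 645, and aorta 433, 1115 and 406. The 3 lung libraries lay below all 19 others, as for 0.213% of tested genes. Lung was lower by a log2 fold change of -2.04 ± 0.26 (SE, adjusted p = 5.82e-05), and bladder was higher by 1.34 ± 0.26 (adjusted p = 0.00143). In order of mean log2 level the tissues ran bladder, stomach, intestine, heart, kidney, aorta and lung. Of the neighbours in that order only aorta and lung differed (log2 1.29 ± 0.34, adjusted p = 0.0125), and 10 of 21 pairs differed in all.

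Bmp4 (ENSMUSG00000021835, mm39 chr14:46620977-46628126, minus strand) was highest in bladder, intestine and stomach. Bladder libraries held a signal of 1753, 2188 and 2605, intestine libraries 1410, 1376, 1301 and 1698, and stomach libraries 1136, 1000 and 978. Lung held 666, 471 and 282, kidney 150, 658 and 418, aorta 367, 207 and 264, and heart 329, 265 and 0. These 3 high tissues did not overlap with the other 4, a split whose share over all tested genes was not counted. Bladder did not overlap with any tissue (2.79% of tested genes have all bladder libraries on top). Even so the bladder difference missed the threshold (log2 2.52, adjusted p = 0.103), and only the heart difference passed (log2 -4.01 ± 1.01, adjusted p = 0.00967). Both values changed when heart 3, with its 0, was left out. At the mean signal of heart 1 and 2, heart 3 would have held 36.7 reads. Without heart 3, Bmp4 in heart was still lower, by -1.28 ± 0.37 (adjusted p = 0.0368). In that fit bladder was higher by 2.06 (adjusted p = 0.000144), intestine was higher by 1.39 (adjusted p = 0.000941), aorta was lower by -1.41 (adjusted p = 0.00108) and kidney was lower by -1.01 (adjusted p = 0.0373). The corresponding shares of tested genes called in that fit were 8.69% in heart, 18.8% in bladder, 28.6% in intestine, 58.0% in aorta and 13.0% in kidney. With all libraries 3 of 21 pairs differed, each of bladder, intestine or stomach against heart, and no neighbours in the order did.

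Bmp4 was also the member with the densest coverage. It reached 1.42 reads per exonic base in intestine 2, and 10 libraries passed 0.5. Of 16601 tested genes with a known length, 16.8% reached 0.5 and 243 lay above Bmp4. Its rebuilt reads were 2972, 3186, 3086 and 2942 in the 4 intestine libraries. The other members peaked between 0.21 (Grem1) and 0.926 (Bmp7) reads per exonic base.

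Bmp5, Bmp6 and Bmp7 form the second branch of ligands, which binds the type I receptor ACVR1 readily. Bmp7 (ENSMUSG00000008999, mm39 chr2:172709805-172782114, minus strand), a ligand known for kidney development and bone formation, had the lowest adjusted p of the 9 in the F test (3.99e-07). In intestine its signal was 1229, 1607, 1245 and 1415, above all other libraries, as for 3.27% of tested genes. Bladder libraries held 953, 1027 and 161, and stomach libraries 428, 382 and 476. Kidney held 35, 83 and 84, lung 79, 49 and 22, heart 4, 0 and 65, and aorta 0 in all 3. The 4 intestine libraries stood apart, bladder 3 lay far below bladder 1 and 2, and all aorta libraries had no read. Intestine was higher by 5.07 ± 0.69 (adjusted p = 1.98e-05), bladder was higher by 3.51 (adjusted p = 0.00396) and stomach was higher by 3.11 (adjusted p = 0.00705). Heart was lower by -3.83 (adjusted p = 0.00224). Aorta held 0 of 4097587 reads, and against a floor of 3 reads over the group, or 0.732 CPM of rebuilt reads, Bmp7 was at least 349-fold lower there than the 256 CPM of intestine. The fitted aorta difference was -7.09 ± 0.78 (adjusted p = 1.59e-06).

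Of the Bmp7 calls, that in stomach was lost without the aorta libraries (log2 1.99, adjusted p = 0.0776). That in heart was lost in edgeR's quasi-likelihood test on rebuilt reads (log2 -3.17, adjusted p = 1.0), and was -2.44 without heart 2 and -5.46 without heart 3. Bladder was at 4.38 without bladder 3. Ordered by mean log2 level the tissues ran intestine, bladder, stomach, kidney, lung, heart and aorta. No neighbours in that order differed, while 12 of 21 pairs did, among them intestine and kidney (log2 4.43 ± 0.96, adjusted p = 0.00292).

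Bmp5 (ENSMUSG00000032179, mm39 chr9:75682646-75807592, plus strand), a ligand known for skeletal patterning in mice, was low in aorta and kidney. In aorta its signal was 0, 32 and 17, from 0, 8 and 5 rebuilt reads. In kidney it was 36, 19 and 49, from 79, 29 and 43 reads. Bladder held 1489, 2022 and 486, intestine 1097, 1218, 1022 and 855, lung 838, 563 and 350, stomach 556, 521 and 401, and heart 293, 262 and 299. Aorta and kidney libraries lay below all 16 libraries of the other 5 tissues. The share of tested genes with that split was not counted. Aorta was lower by -5.5 ± 0.65 (adjusted p = 3.53e-06), kidney was lower by -3.18 (adjusted p = 0.00269), bladder was higher by 2.76 (adjusted p = 0.00578) and intestine was higher by 2.61 ± 0.57 (adjusted p = 0.00232). Among neighbours only heart and kidney differed (log2 3.1 ± 0.85, adjusted p = 0.0261), within 10 differing pairs. The aorta value was -3.96 without aorta 1 and -6.49 without aorta 2, and the bladder call was lost without bladder 2 (2.34, adjusted p = 0.0656) and was 3.37 without bladder 3. Without the aorta libraries kidney was at -4.21, bladder at 1.9 and intestine at 1.74, all past the threshold.

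Bmp6 (ENSMUSG00000039004, mm39 chr13:38529083-38684278, plus strand), which also controls hepcidin in iron balance, varied less. In bladder its signal was 1852, 668 and 1226, in intestine 960, 1138, 952 and 1057, and in heart 763, 845 and 882. Kidney held 678, 878 and 474, and stomach 469, 390 and 487. Aorta held 349, 442 and 50, and lung 344, 174 and 137. Lung and aorta lay lowest, and lung lay below every intestine, heart, kidney, stomach and bladder library. The share of tested genes for which this holds was not counted. Aorta was lower by -1.64 ± 0.43 (adjusted p = 0.00455), lung was lower by -1.61 (adjusted p = 0.0259), bladder was higher by 1.31 (adjusted p = 0.0466) and intestine was higher by 1.11 ± 0.38 (adjusted p = 0.0397). Without aorta 3 the aorta value was -0.66 (adjusted p = 0.0807), and it was also lost in edgeR (adjusted p = 0.059). The lung call was lost without lung 2 (adjusted p = 0.141) or lung 3 (adjusted p = 0.183). The bladder call was lost in 15 of 22 fits that each left out 1 library and the intestine call in 11 of 22, with adjusted p up to 0.254 and 0.115. Heart, kidney and stomach did not pass, and no neighbours in the order bladder, intestine, heart, kidney, stomach, lung and aorta differed, while 7 of 21 pairs did.

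**Figure D2:**
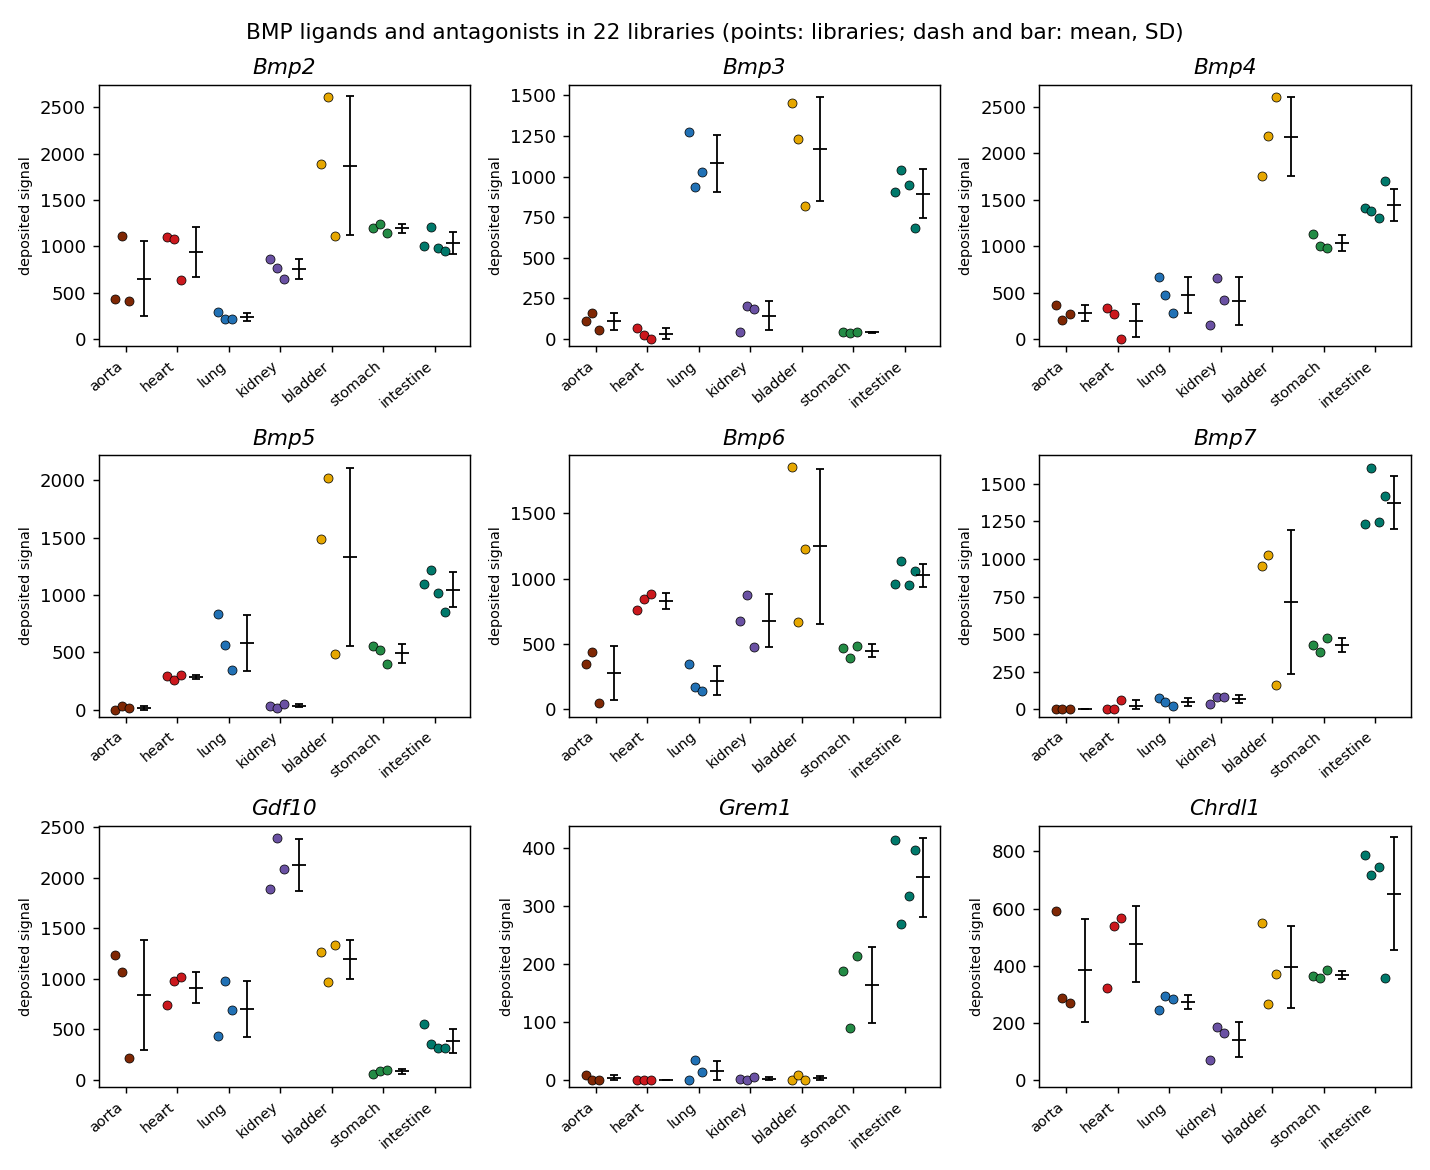
Deposited signal (vertical axis, linear, each panel on its own scale) of the 9 genes in each of 22 libraries, by tissue along the horizontal axis, with the mean and SD of each tissue beside its points. Bmp7 and Grem1 sit highest in the 4 intestine libraries, Gdf10 in the 3 kidney libraries and Bmp4 in the 3 bladder libraries, while Bmp2 is lowest in the 3 lung libraries.

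Bmp3 and Gdf10 (also called Bmp3b) form a divergent pair, and BMP3 is known to oppose signalling by other BMPs at activin type II receptors. Bmp3 (ENSMUSG00000029335, mm39 chr5:99002274-99032255, plus strand) fell into high and low tissues. In bladder its signal was 1453, 1234 and 821, in lung 1278, 939 and 1030, and in intestine 906, 1040, 951 and 683. Kidney held 45, 202 and 188, aorta 113, 162 and 56, stomach 43, 37 and 45, and heart 67, 28 and 0. The 10 libraries of bladder, lung and intestine lay at 683 or more, and the 12 of the other 4 tissues at 202 or less. How many tested genes split in this way was not counted. Stomach and intestine, both of the gut, lay on opposite sides, with intestine above stomach by 4.38 ± 0.92 (adjusted p = 0.0042). Heart was lower by -4.52 ± 0.75 (adjusted p = 0.000407) and stomach was lower by -2.46 (adjusted p = 0.0242). Lung was higher by 2.97 (adjusted p = 0.018), bladder was higher by 3.07 (adjusted p = 0.00773) and intestine was higher by 2.65 ± 0.66 (adjusted p = 0.00623).

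Of the neighbours, ordered bladder, lung, intestine, kidney, aorta, stomach and heart, only intestine and kidney differed (log2 2.87 ± 0.92, adjusted p = 0.0461). In all, 14 of 21 pairs differed, the most of any member. The heart value of Bmp3 was -2.7 without heart 3 (adjusted p = 0.00113), -5.74 without heart 1 and -5.12 without heart 2. With any lung library left out the lung call was lost (adjusted p = 0.117, 0.0803 and 0.0858 without lung 1, 2 and 3), as was the stomach call with any stomach library left out (adjusted p = 0.0915, 0.113 and 0.0881).

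Gdf10 (ENSMUSG00000021943, mm39 chr14:33645544-33659940, plus strand) peaked in kidney and was lowest in stomach. In kidney its signal was 1882, 2393 and 2085, above all 19 other libraries, as for 2.05% of tested genes. In stomach it was 58, 90 and 102, below all others, as for 0.863% of tested genes. Bladder held 1265, 972 and 1335, heart 738, 977 and 1019, lung 432, 982 and 687, aorta 1234, 1070 and 215, and intestine 556, 355, 316 and 315. Kidney was higher by 2.1 ± 0.36 (adjusted p = 0.000583) and stomach was lower by -3.37 (adjusted p = 1.2e-06). Intestine held more than stomach, by 2.19 ± 0.44 (adjusted p = 0.00311), and these were the only neighbours of the order that differed, within 11 differing pairs. Bladder was higher by 1.12 (adjusted p = 0.0414), a call lost in 13 of 22 fits that each left out 1 library (adjusted p up to 0.174).

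Grem1 (ENSMUSG00000074934, mm39 chr2:113576509-113588991, minus strand) encodes gremlin 1, which binds BMP2, BMP4 and BMP7. Its signal lay mostly in the gut. In intestine its signal was 414, 269, 317 and 396, above all other libraries, as for 3.27% of tested genes. In stomach it was 187, 90 and 214. Lung held 0, 34 and 14, and kidney 2, 0 and 5. Aorta held 9, 0 and 0, where 9 stands for 1 read, bladder 0, 8 and 0, and heart 0 in all 3. The 7 gut libraries lay at 90 or more, and the 15 others at 34 or less. How many tested genes show such a split was not counted, and Grem1 passed the filter largely through gut libraries. Intestine was higher by 6.12 ± 0.79 (adjusted p = 1.01e-05) and stomach was higher by 4.77 (adjusted p = 0.00062). Heart held 0 of 14933926 reads. Against a floor of 3 reads over the group, or 0.201 CPM, Grem1 was at least 324-fold lower in heart than the 65.1 CPM of intestine, and the fitted difference of heart was -3.71 (adjusted p = 0.00726). Aorta was lower by -2.42 ± 0.89 (adjusted p = 0.0297), a call lost without aorta 2 (adjusted p = 0.157) or aorta 3 (adjusted p = 0.142) and in edgeR (adjusted p = 1.0), and -3.53 without aorta 1.

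The step from stomach to lung was the only one between neighbours of the Grem1 order that passed (log2 4.26 ± 1.17, adjusted p = 0.0142). Between intestine and stomach the difference missed the threshold (log2 1.16 ± 1.09, adjusted p = 0.886), although their libraries did not overlap. Intestine differed from each of the 5 tissues outside the gut, as did stomach, which makes up the 10 differing pairs of 21.

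Chrdl1 (ENSMUSG00000031283, mm39 chrX:142068670-142177258, minus strand) encodes chordin-like 1, also known as ventroptin, which binds BMP4. It was found in every library and was lowest in kidney. In kidney its signal was 72, 187 and 166, below all other libraries, as for 0.177% of tested genes. In intestine it was 786, 717, 746 and 358, and in heart 323, 538 and 566. Bladder held 549, 266 and 373, stomach 363, 356 and 384, aorta 593, 288 and 271, and lung 247, 293 and 285. Only 1 intestine library lay within the range of the other tissues. Kidney was lower by -1.6 ± 0.31 (adjusted p = 0.00194) and intestine was higher by 1.02 ± 0.28 (adjusted p = 0.0104). The kidney call was lost without kidney 1 (-1.17, adjusted p = 0.0553), and the intestine call without intestine 1 (adjusted p = 0.0576) or intestine 3 (adjusted p = 0.0534). No neighbours differed in the order intestine, heart, bladder, stomach, aorta, lung and kidney, and 6 of 21 pairs did, of which 5 involved kidney.

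To compare the ligands with each other, signal was divided by exonic length. Summed over the 7 ligands, signal per kilobase was 2710 ± 354 in bladder, 2000 ± 125 in intestine, 1160 ± 52.7 in stomach and 1020 ± 198 in kidney (SD, n = 3, and 4 for intestine). It was 821 ± 114 in heart, 772 ± 183 in lung and 559 ± 236 in aorta. As a share of that sum, Bmp4 led in stomach (39.7% ± 1.44), bladder (36.7% ± 11.8), intestine (32.3% ± 3.83) and, by its mean, lung (26.5% ± 4.86). In lung 3 its share of 21.5% lay below those of Bmp3 (23.8%) and Gdf10 (22.6%). Gdf10 led in kidney, at 40.3% ± 2.91, and held 1.39% ± 0.429 in stomach. Bmp2 led in heart (31.7% ± 5.24, within the spread of Bmp6 at 26.4% ± 5.59) and in aorta (33.1% ± 12.0), in aorta within the spread of Gdf10 (26.3% ± 12.0) and Bmp4 (25.9% ± 13.6). Bmp7 made up 17.1% ± 1.27 in intestine, 9.19% ± 1.17 in stomach and 6.22% ± 3.89 in bladder. In lung Bmp3 and Bmp5 held 19.4% ± 3.95 and 18.2% ± 3.53, while Bmp2 held 8.87% ± 1.28. These shares were not tested, and since they sum to 100 a higher share of 1 ligand lowers the rest.

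**Figure D3:**
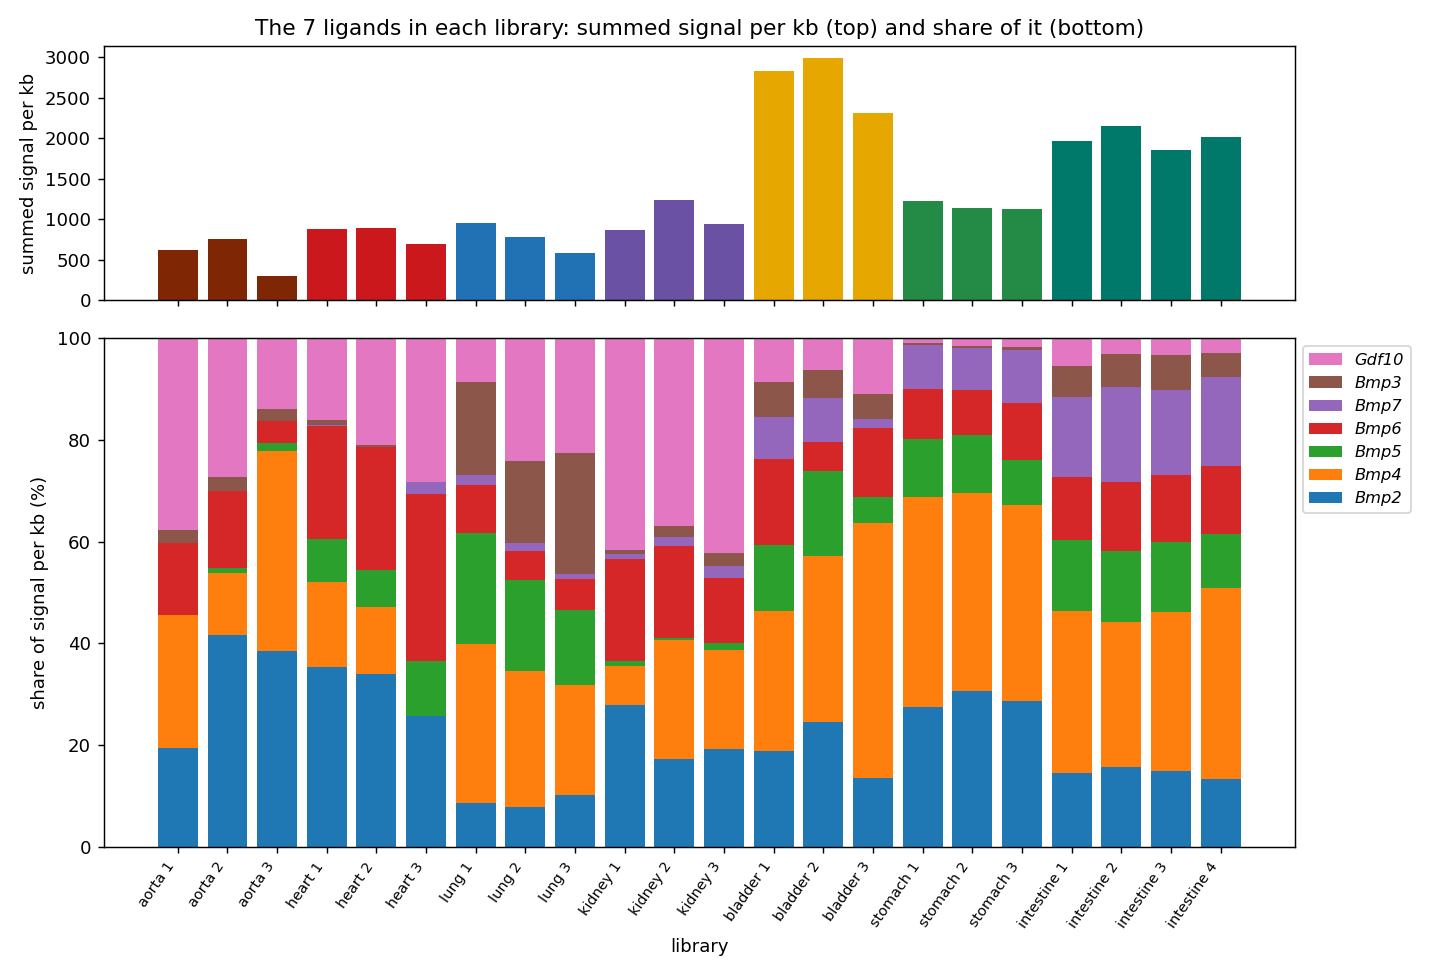
Signal per kilobase of exon summed over the 7 ligands (top, bars from 0) and the percent of that sum held by each ligand (bottom) in each of 22 libraries. The 3 bladder and 4 intestine libraries have the largest sums, Gdf10 is the largest share in each kidney library, and Bmp7 is absent from the 3 aorta libraries.

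Some members varied together. Over the 22 libraries, Pearson's r of log2(signal + 1) was 0.758 for Bmp3 and Bmp4, 0.726 for Bmp5 and Bmp7, 0.695 for Bmp2 and Bmp6 and 0.63 for Bmp7 and Grem1. It was -0.612 for Gdf10 and Grem1. These values are descriptions over libraries that share tissue and depth, and the 3 libraries of a tissue are not independent points. Bmp3 and Bmp4 were both at 0 in heart 3, while Bmp4 was at 150 or more in every other library. That 1 library thus weighs heavily in r for Bmp4, and r without it was not computed. Among all tested genes, those most like each member by the same measure were Itih5 (0.841) and Fscn1 (0.819) for Bmp2, Thbs3 (0.964) and Fkbp11 (0.958) for Bmp4, and Tnfsf13b (0.919) and Scarb2 (0.889) for Bmp3. For Bmp5 they were Ralgds and Ccl11 (0.92 each), for Bmp6 Rap2a (0.881) and Septin11 (0.839), and for Bmp7 Nr1h4 (0.94) and Negr1 (0.923). Gdf10 was most like Npy1r (0.883) and Phactr2 (0.798). For Grem1 they were Slc23a4 (0.929) and Muc4 (0.928), and for Chrdl1 Steap3 (0.728) and Aldh1a1 (0.719). Muc4 encodes an epithelial mucin and Nr1h4 the bile acid receptor FXR.

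Markers of other cells also differed in the tissues in which the members were high, in both directions. Beside their counts, 15.5% of tested genes were higher and 9.97% lower in intestine. These shares were 13.4% and 6.93% in stomach, and 8.31% and 7.4% in bladder. Of 10 epithelial markers, 9 were higher and 0 lower in intestine, 8 and 0 in stomach, and 2 and 2 in bladder. Their summed signal was 6254 to 8989 in intestine and 10061 to 12676 in stomach. It was 560 to 4277 in bladder, 582 to 2627 in kidney, 249 to 752 in lung, 198 to 587 in aorta and 38 to 146 in heart. Cdh1, Cldn4, Elf3, Spint1 and Ap1m2 were at 0 in aorta and heart, and Epcam in heart. Of 10 visceral smooth muscle markers, 6 were higher and 0 lower in intestine, 6 and 1 in stomach, and 3 and 4 in bladder. Their sums were 8347 to 10739 in intestine and 7056 to 8521 in stomach. Lung held 9037 to 10763, bladder 5068 to 9781 and kidney 3218 to 3925. Heart held 5624 to 12401 and aorta 4983 to 13234. Barx1, Chrm2 and Chrm3 were at 0 in aorta and Nkx2-3 in heart. The part of these cells in the levels of Grem1 and Bmp7 in the gut was not tested.

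Of 10 fibroblast markers, 1 was higher and 5 lower in intestine. In bladder, 6 were higher and 0 lower, with a sum of 35794 to 49377. It was 24057 to 62063 in aorta, 15539 to 28280 in heart, 16065 to 19197 in lung, 9640 to 24390 in kidney, 16178 to 19134 in stomach and 15037 to 17933 in intestine, and no fibroblast marker was at 0 in any tissue. All 6 mesothelial markers, of which Krt19 is also on the epithelial list, and 5 of the 6 immune markers that passed the filter were higher in bladder too. The mesothelial sum was 553 to 3541 in bladder, 1255 to 1799 in stomach, 1145 to 1647 in intestine, and at most 610 in any library of the other 4 tissues. The immune sum was 2560 to 5426 in bladder, 1957 to 2566 in lung and at most 1525 in any library of the other 5 tissues. Of 9 smooth muscle markers, 5 were lower in bladder and 6 in intestine, with sums of 11268 to 20228 and 14364 to 17567. That sum was 59034 to 87451 in aorta, 25905 to 100114 in heart, 22857 to 27373 in lung, 18393 to 33111 in kidney and 14479 to 17874 in stomach. The part of these cells in the bladder levels was not tested.

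The rest of the pathway was counted over 67 other listed genes, with Bambi, Smad6 and Smad7 on more than 1 list, of which 64 were in the table, 56 were tested and 46 differed across tissues (82.1%, beside 59.6% of all tested genes). These lists too were written with earlier results of these data known, so their counts are descriptions only. Among 11 genes known to respond to BMPs, the gut had lower signal. In intestine 7 were lower and 0 higher, with a median log2 fold change of -1.06 beside 0.34 for all tested genes, and in stomach 6 were lower and 0 higher, with a median of -0.77 beside 0.3. In heart 6 were higher and 0 lower, with a median of 0.79 beside -0.19. Without heart 3, 4 targets were higher and 0 lower in heart. Without any 1 stomach library, 3 were lower and 0 higher in stomach, and without aorta 3 intestine had 8 lower and 1 higher. In kidney 0 were higher without kidney 1 or kidney 3 and 1 without kidney 2, and without aorta 3 there were 3 higher and 1 lower. In bladder 0 were higher without bladder 2 and 1 without bladder 1, 0 were lower without bladder 3, and 4 were higher without aorta 1. In aorta 3 were higher and 3 lower without aorta 1 and 6 higher without aorta 3, and in lung 5 were higher without aorta 3. Aorta had 4 higher and 2 lower, lung 3 higher, kidney 2 higher and bladder 2 higher and 1 lower. Of all tested genes, 9.15% were higher and 42.8% lower in aorta, 4.43% higher in lung, 6.35% higher in kidney, and 8.31% higher and 7.4% lower in bladder, beside 9.97% lower in intestine, 6.93% lower in stomach and 6.03% higher in heart.

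Bambi, which encodes a decoy receptor induced by BMPs and was singled out after its values were seen, had a signal of 149 to 175 in intestine and 158 to 180 in stomach, against 356 to 1933 in the other 5 tissues. Intestine was lower by -2.22 ± 0.23 (adjusted p = 4.73e-07) and stomach was lower by -2.22 ± 0.25 (adjusted p = 2.75e-06). The gut did not overlap with the rest, and the share of tested genes with such a split was not counted. Msx1, a homeobox target, averaged 117.0 ± 14.4 in intestine and 114.0 ± 20.2 in stomach, against 1080.0 ± 500.0 in heart (SD), and was lower in intestine by -1.77 ± 0.28 (adjusted p = 0.000112). Id3, an inhibitor of basic helix-loop-helix factors, averaged 889.5 ± 124.0 in intestine and 5097.0 ± 1480.0 in aorta, and was lower in intestine by -1.2 ± 0.28 (adjusted p = 0.0034). Id1, Id2, Atoh8 and Msx2 were the other 4 lower in intestine, and Id2, Id4 and Atoh8 the other 3 lower in stomach. Hey1, also a Notch target, had its highest mean in heart, at 716.3 ± 132.0, and was higher there by 2.93 ± 0.77 (adjusted p = 0.0126, but 0.0504 without heart 1). Msx2 was higher in heart by 4.91 ± 0.79 (adjusted p = 0.000326), at a signal of 65 to 103 against at most 28 elsewhere. The share of tested genes with all heart libraries on top is not given here. Smad7, an inhibitory SMAD, was higher in heart by 1.07 ± 0.26 (adjusted p = 0.00838, but 0.0636 without heart 3).

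Of the 11 targets, 7 passed 0.5 reads per exonic base in at least 1 library, and Hey1, Msx2, Smad7 and Bambi did not. Of these 4, Bambi was lower in both gut tissues and Msx2 in intestine, while Hey1 and Smad7 were called in neither. Id3 held 1775 to 1982 rebuilt reads in intestine, 1661 to 1901 in stomach, 1933 to 2205 in lung and 682 to 1323 in aorta. Its reads thus differed less between intestine and aorta than their depth did. On rebuilt reads with TMM scaling, edgeR's quasi-likelihood test called 8 targets lower and 0 higher in intestine, 6 lower and 0 higher in stomach and 6 higher and 0 lower in heart, with Id3 in place of Id1. Both tests rest on the same reads, so edgeR cannot decide the part of coverage in the gut values, which was not tested.

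**Figure D4:**
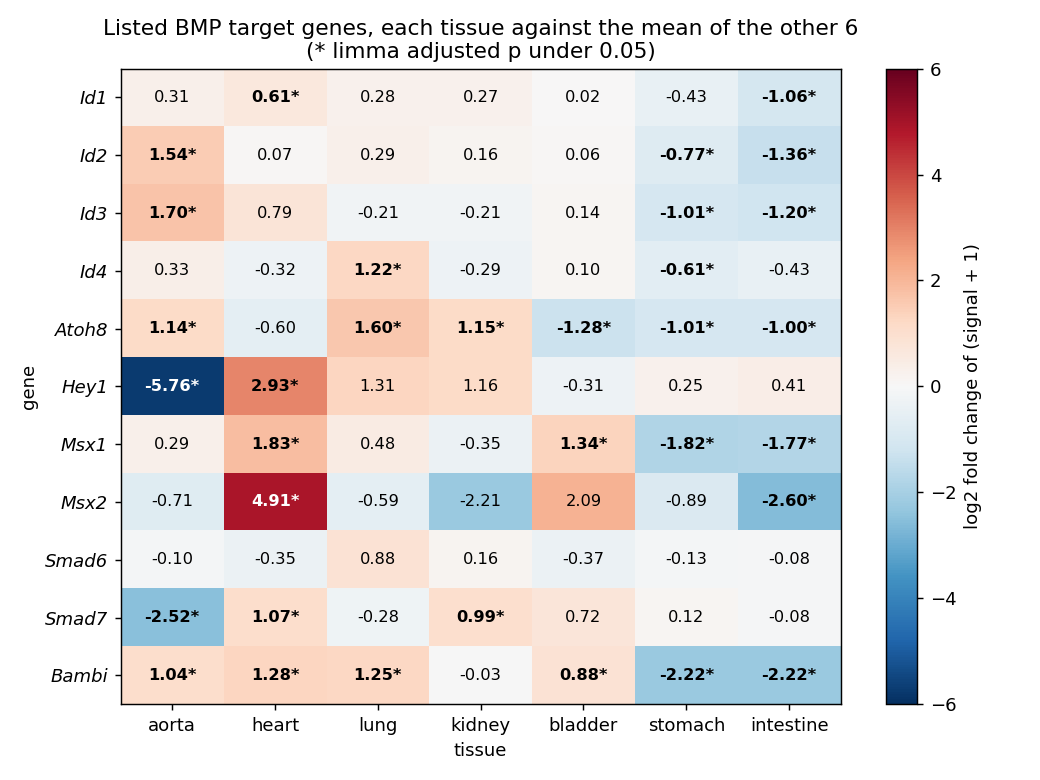
Log2 fold change of log2(signal + 1) for 11 listed BMP target genes (rows) in each of 7 tissues (columns) against the mean of the other 6, with asterisks at a limma adjusted p under 0.05. Intestine has 7 lower calls and stomach 6, with no higher call in either, while heart has 6 higher calls and no lower one.

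Other secreted antagonists differed by tissue in their own ways, 11 of 15 tested in the F test, beside 59.6% of all tested genes. Sostdc1, which blocks both BMP and Wnt signals, averaged 458.0 ± 175.0 in bladder and 438.3 ± 272.0 in kidney and was higher in both (log2 5.12 ± 0.54 and 4.89 ± 0.54, adjusted p = 3.57e-06 and 2.8e-06). Sost, the gene of sclerostin, reached 452 to 2130 in the aorta libraries and was higher there by 6.81 ± 1.0 (adjusted p = 3.32e-05). It was listed at 0 in all stomach libraries. Kcp, a chordin-like protein that enhances BMP signals, had means of 274.3 ± 249.0 in bladder and 218.5 ± 27.7 in intestine. It was higher in intestine by 3.73 ± 0.9 (adjusted p = 0.00481) and in stomach by 2.94 ± 1.02 (adjusted p = 0.0469). The stomach call was lost in 13 of 22 fits that each left out 1 library (adjusted p up to 0.181). Fstl1, the most abundant of the list, was higher in aorta by 0.99 ± 0.15 (adjusted p = 3.66e-05). It held 819 to 2932 rebuilt reads in aorta, against 5219 to 6178 in lung and 5090 to 6256 in intestine. Coverage in lung and intestine reached 1.26 and 1.27 reads per exonic base. The part of depth in the aorta difference was not tested. By tissue this list had 5 higher and 1 lower in bladder, 4 and 4 in stomach, 4 and 3 in intestine, 0 and 4 in heart, 2 and 3 in kidney, 3 and 2 in lung and 4 and 4 in aorta. The shares of all tested genes that were higher and lower were 8.31% and 7.4% in bladder, 13.4% and 6.93% in stomach, 15.5% and 9.97% in intestine, 6.03% and 12.4% in heart, 6.35% and 4.11% in kidney, 4.43% and 3.48% in lung and 9.15% and 42.8% in aorta.

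Receptors and SMADs had more calls in aorta than in any other tissue, as did all tested genes. Of 14 receptors and co-receptors, 11 differed across tissues, beside 59.6% of all tested genes. In aorta 9 were lower and 1 higher, where 42.8% of tested genes were lower and 9.15% higher. Their median in aorta was -1.47, beside -1.04 for all tested genes. In the other tissues at most 2 were higher and at most 1 lower. There 4.43% to 15.5% of tested genes were higher and 3.48% to 12.4% lower. Tgfbr3, the co-receptor betaglycan, averaged 2101.0 ± 402.0 in intestine, where it was higher by 1.68 ± 0.35 (adjusted p = 0.0016), and 176.7 ± 79.5 in aorta. The type I receptor gene Bmpr1b was higher in stomach by 3.95 ± 1.2 (adjusted p = 0.0242), at 147 to 288, a call lost without any 1 stomach library (adjusted p = 0.0706 to 0.119). Acvr2b, a type II receptor, was higher in heart by 1.53 ± 0.4 (adjusted p = 0.0133, but 0.0874 without heart 3). Hjv, a co-receptor of the hemojuvelin family, had its highest mean in lung, at 233.3 ± 72.7, where it missed the threshold (adjusted p = 0.0787). Eng, the endothelial co-receptor endoglin, averaged 2205.0 ± 505.0 in heart, where it also missed it (adjusted p = 0.0703). Of 10 endothelial markers, 7 were higher and 0 lower in heart, where 6.03% of tested genes were higher. Kidney had 3 higher, and lung and stomach 1 each. Their summed signal was 6002 to 8521 in heart, 4781 to 9878 in kidney, 3208 to 4656 in lung and 3408 to 4244 in stomach. It was 2353 to 4412 in intestine, 1370 to 2549 in bladder and 830 to 1497 in aorta. The part of endothelial cells in the heart values was not tested.

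Of 8 SMADs and SMAD regulators, 6 differed across tissues, beside 59.6% of all tested genes. In aorta 7 were lower and 0 higher, where 42.8% of tested genes were lower and 9.15% higher. Their median there was -1.16, beside -1.04 for all tested genes. Smad5, a BMP effector, was higher in intestine by 1.32 ± 0.44 (adjusted p = 0.0332), a call lost without any 1 intestine library (adjusted p = 0.0639 to 0.1). Smad9 was lower in heart by -3.61 ± 0.74 (adjusted p = 0.00234), at 3.667 ± 6.35, beside its highest mean of 60.0 ± 9.64 in lung. Smad4, the shared partner, ranged between means of 857.0 ± 234.0 in aorta and 1404.0 ± 301.0 in heart, and Smurf2, a ubiquitin ligase for SMADs, was lower in aorta by -1.23 ± 0.3 (adjusted p = 0.00286).

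All 7 processing enzymes, which cut BMP precursors or chordin-type antagonists, differed across tissues, beside 59.6% of all tested genes. Intestine had 5 higher and 0 lower, stomach 3 higher and 0 lower, bladder 2 higher and 2 lower, aorta 5 lower and heart 3 lower. Beside these stand 15.5% of tested genes higher in intestine, 13.4% higher in stomach, 8.31% higher and 7.4% lower in bladder, 42.8% lower in aorta and 12.4% lower in heart. The median log2 fold change of the 7 was 1.16 in intestine, 0.9 in stomach, -0.28 in bladder, -1.04 in heart and -1.82 in aorta, beside 0.34, 0.3, 0.06, -0.19 and -1.04 for all tested genes. Furin, the main proprotein convertase of BMP precursors, held 3526 to 4448 in stomach and was higher there by 2.88 ± 0.47 (adjusted p = 0.000153). Those libraries lay above all others, and the share of tested genes for which this holds is not given here. Pcsk6, a related convertase, averaged 2073.0 ± 274.0 in intestine and was higher by 2.18 ± 0.46 (adjusted p = 0.00168). Bmp1, a chordin-cutting metalloprotease that is no BMP ligand, was highest in bladder, at 2640.0 ± 492.0, and was higher by 1.59 ± 0.28 (adjusted p = 0.000528). Its relatives Tll1 and Tll2 stayed at means of 28.5 and 26.0 or less, with both peaks in intestine. The stomach count includes Tll2 (log2 1.95 ± 0.68, adjusted p = 0.0483). That call was lost in 15 of 22 fits that each left out 1 library (adjusted p up to 0.189).

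Among 14 other BMP and GDF ligands, 12 were in the table and 4 passed the filter. Of these, 3 differed across tissues, beside 59.6% of all tested genes. Gdf15, a stress-induced ligand, was at 281 to 620 in aorta and was higher there by 2.3 ± 0.39 (adjusted p = 0.000138). It was lower in stomach by -3.61 ± 0.39 (adjusted p = 1.32e-06) and in intestine by -2.17 ± 0.35 (adjusted p = 0.000117). Gdf11 was higher in kidney by 2.78 ± 0.63 (adjusted p = 0.00679), at 134 to 354, above all other libraries, as for 2.05% of tested genes. That call was lost without kidney 1 (adjusted p = 0.0781) or kidney 3 (adjusted p = 0.0733). Gdf6 was higher in bladder by 3.76 ± 0.82 (adjusted p = 0.00355), at 46 to 105.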

How the data were processed

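RNA from sorted arterial smooth muscle cells, at most 10 ng of total RNA per sample, had been turned into cDNA with SMART-Seq v4, a full-length kit for very small inputs, per the labels' protocols. The submitters' processing notes name DESeq2 1.36.0, DESeq, featureCounts 2.0.4, Picard 3.0.0, STAR 2.7.10a and Trimmomatic 0.39, and the build mm39, but no role or order. The authors deposited 1 table of signal, meaning whole numbers with a different scale in each library. The scaling was read off the values. Dividing by the step of each library, found by a likelihood search over steps of 0.3 to 12 on values of 15 to 1500, gave rebuilt reads. In the 3 aorta libraries and heart 3, 99.94% to 99.99% of values fell on a whole multiple of the step within rounding, where chance gives 10.6% to 30.3%. Where 1 read is worth about 1 unit or less, the step rests on the likelihood alone.

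The design named limma for values that are not raw counts. Limma-trend (limma 3.58.1, R 4.3.3) was fitted on log2(signal + 1) to all 22 libraries in 7 tissue groups, for the genes past the filter (signal of 10 or more in 3 or more libraries), with Benjamini-Hochberg adjusted p over 16917 genes and a threshold of 0.05. Where a tissue is at 0, the size of the change depends on the value added to the signal and on the method. For Bmp7 in aorta, at 0 in all 3 libraries, it was -7.09, but -4.14 on log2(signal + 10) and -10.61 in edgeR. Where 1 library is at 0, changes can be overstated, as for Bmp4 in heart (-4.01, against -1.81 in edgeR). The reference for each tissue was the unweighted mean of the other 6, and 21 pairs were compared. EdgeR 4.0.16 was run on rebuilt reads as an alternative. The scripts were tested on simulated data. Exonic lengths came from GENCODE M21, matched by identifier for 96.2% of genes. Promoter windows came from RefSeq (GRCm38.p6), and gene positions from the table are mm39. No 2 libraries were identical. The members and lists were chosen with earlier results of these data known. From each other pathway list the text names up to 4 genes past the F test with the largest range of tissue means and the 1 with the highest mean, and for each member the 2 genes with the highest r. One result that this rule names is not reported here. Other scalings, filters, pseudocounts, library weights, a replicate block, and leaving out libraries were tried.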

Additional observations from a re-analysis of the deposited data

Results flagged for a closer look

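Of the 9 genes, each tested in the only group of 4 libraries, intestine, 2 had a library far from the other 3 by the ratio of gap to range, past Dixon's critical value. Chance flags about 1 in 20 such groups. Gdf10 reached 0.834, with 556 in intestine 1 and 315 to 355 in the others. Chrdl1 reached 0.839, with 358 in intestine 4 and 717 to 786 in the others.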

How the results depend on the processing

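None of the 30 calls of a gene in a tissue changed sign under any alternative tried. All 9 genes differed across tissues in each of them, including every fit that left out 1 library. Of these calls, 23 were kept in all settings other than leaving out 1 library, and 17 in those fits too. Counts of members called moved by over 1.5 times with array weights and in edgeR: aorta had 2 with array weights and 2 in edgeR in place of 4, and stomach had 7 with array weights in place of 4. Leaving out 1 library gave 1 to 4 calls in lung, where all libraries gave 3. Without the aorta libraries, and likewise without heart 3, 7 members were called in bladder and 7 in intestine, and without heart 3 there were 6 in aorta. Without the aorta libraries, 70 of the pairs that remained passed, against 56 before. For all tested genes, array weights called 2200 and edgeR 4859 in aorta, against 8783, and 4387 were called in lung without the aorta libraries, against 1338. The share of calls that were higher was 46.5% in aorta and 69.1% in heart in edgeR, against 17.6% and 32.8%, and 44.7% in lung with median-of-ratios scaling, against 56.1%. The median log2 fold change of all tested genes was then 0.02 in lung, against 0.15, and -0.4 in aorta in edgeR, against -1.04. The cause was not tested. No pairing of samples by replicate number was seen. Of 63 same-numbered pairs of libraries, 3 correlated over 0.1 in their deviations, and 4 of 21 libraries lay closest to their own number. Such correlations cannot show that pairing is absent. With the replicate block 9 genes differed across tissues, 79 gene and pair combinations passed in place of 83, and 42 other pathway genes in place of 46. Aorta then had 3 calls, heart 4, lung 3, kidney 3, bladder 4, stomach 4 and intestine 5. Depth limits aorta and heart 3, where 1 read is worth a signal above 8 in 2 of the 4 libraries.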

Other observations

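In 6 cases a gene was at 0 in 1 library while the other libraries of that tissue were not. The reads that such a library would have held at the mean signal of the others were 45.1 for Bmp7 in heart 2, 36.7 for Bmp4 in heart 3, 25.7 for Grem1 in lung 1, 5.87 for Bmp3 in heart 3, 5.3 for Grem1 in kidney 2 and 2.6 for Bmp5 in aorta 1. The Bmp7 value rests on heart 3, where a signal of 65 stands for 8 reads, since heart 1 held a signal of 4.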
